A study of Mus musculus with 51 samples.

Results

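In MC3T3-E1 cells grown without VitC, the H3K9me3 peak list held 44832 peaks, of which 34405 had a -log10 q value of at least 1.3. Of these, 14704 shared no base with any H3K9me3 peak of cells grown with VitC, and these are the peaks lost with VitC described here. They were chosen from the measured peak lists themselves, so their H3K9me3 values are a description and were not tested. The remaining 19701 peaks of VitC- cells above the same threshold overlapped a VitC+ peak (kept peaks), and 10232 peaks of VitC+ cells above it overlapped no VitC- peak (gained peaks). Lost peaks were 42.7% of the VitC- peaks above the threshold and covered 12.6 Mb.

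MC3T3-E1 is a mouse calvarial pre-osteoblast line of C57BL/6 origin, a single line in culture. The cells were grown in medium free of VitC and then with 4 mM β-glycerophosphate, a phosphate source for mineralization, with (VitC+) or without (VitC-) 50 µg/ml of VitC, in 2 dishes per group. H3K9me3 and H3K27me3 were measured by ChIP-seq and 5hmC by immunoprecipitation of hydroxymethylated DNA (hMeDIP-seq), with 1 deposited peak list per mark and group. The 5hmC lists are labelled day 28. For the histone marks the study's methods give day 7 and the labels 28 days, so it is not settled whether the culture times of the marks differ. Femoral bone, with the marrow flushed, came from 20 week old mice, with 3 RNA-seq libraries per group. These were wild type mice (WT), Gulo knockout mice (Gulotm1Mae) given 3.3 g/L of VitC in the drinking water throughout (VitC+), and Gulo knockout mice whose VitC ended after 15 weeks (VitC+/-). Both knockout groups lack the enzyme for VitC synthesis, in every tissue, and the VitC+/- mice grew up with VitC. Femoral 5hmC lists also came from 11 week old control mice (Ctrl) and 11 week old mice with Tet1 and Tet2 deleted by Prrx1-Cre (Tet1/2 cKO). By the study's methods, Ctrl mice also carry Prrx1-Cre, with wild type Tet1 and Tet2, and both groups are of C57Bl/6 background. Prrx1-Cre acts in limb mesenchyme and its descendants but not in the blood cells that a femur still holds.

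H3K9me3 is the histone mark of constitutive heterochromatin. It is written by enzymes such as SETDB1 and SUV39H, is read by HP1 proteins, and silences transposons, satellite repeats and gene families such as zinc finger genes, while KDM3 and KDM4 enzymes, dioxygenases that use iron and are aided by VitC, remove H3K9 methylation. H3K27me3 is the mark of Polycomb silencing over developmental genes, and 5hmC is the product of TET enzymes, dioxygenases of the same kind, which is found mostly in bodies of active genes and at enhancers. In bone, osteoblasts need VitC for collagen hydroxylation and for their maturation.

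Sequences of lost peaks are shown for 2 reasons. The first 4 are peaks among the 8 with the highest H3K9me3 fold enrichment. They lie in repeat-masked sequence and are those of the 8 that shared long runs of bases with another. The next 5 are stretches of lost peaks near starts of genes, chosen because they differ in 5hmC and H3K27me3. All are given 5′ to 3′ on the plus strand of GRCm38 (mm10), read from the RefSeq genome, and capitals mark CpG, the dinucleotide in which 5hmC is formed.
Lost peak chr1:94156603-94156841, between genes: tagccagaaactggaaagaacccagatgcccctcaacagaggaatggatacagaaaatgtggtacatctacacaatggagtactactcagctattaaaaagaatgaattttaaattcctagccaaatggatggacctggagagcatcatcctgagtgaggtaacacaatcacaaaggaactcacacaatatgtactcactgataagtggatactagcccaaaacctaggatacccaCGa
Lost peak chr4:94168565-94168773, intron of Gm12648: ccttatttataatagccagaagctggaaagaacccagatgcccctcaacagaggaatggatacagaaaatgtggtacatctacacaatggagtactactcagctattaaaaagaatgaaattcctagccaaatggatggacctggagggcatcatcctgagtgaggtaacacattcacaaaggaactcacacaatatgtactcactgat
Lost peak chr5:138024661-138024886, intron of Smok3a: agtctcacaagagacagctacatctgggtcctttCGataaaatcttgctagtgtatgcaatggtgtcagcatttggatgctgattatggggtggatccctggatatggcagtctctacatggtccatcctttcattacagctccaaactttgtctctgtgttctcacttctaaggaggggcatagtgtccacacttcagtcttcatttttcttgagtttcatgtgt
Lost peak chr3:48979339-48979558, between genes: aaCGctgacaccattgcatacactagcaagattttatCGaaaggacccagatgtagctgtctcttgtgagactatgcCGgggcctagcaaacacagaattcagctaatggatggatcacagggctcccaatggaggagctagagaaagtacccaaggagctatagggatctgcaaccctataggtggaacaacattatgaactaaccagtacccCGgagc
Upstream of Tbx2, chr11:85831498-85831797: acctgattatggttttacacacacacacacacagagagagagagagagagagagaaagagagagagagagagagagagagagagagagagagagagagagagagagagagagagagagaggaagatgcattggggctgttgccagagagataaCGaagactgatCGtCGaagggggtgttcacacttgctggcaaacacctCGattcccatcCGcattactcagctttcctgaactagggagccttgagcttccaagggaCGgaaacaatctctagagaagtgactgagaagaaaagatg
Upstream of Ucma, chr2:4974687-4974986: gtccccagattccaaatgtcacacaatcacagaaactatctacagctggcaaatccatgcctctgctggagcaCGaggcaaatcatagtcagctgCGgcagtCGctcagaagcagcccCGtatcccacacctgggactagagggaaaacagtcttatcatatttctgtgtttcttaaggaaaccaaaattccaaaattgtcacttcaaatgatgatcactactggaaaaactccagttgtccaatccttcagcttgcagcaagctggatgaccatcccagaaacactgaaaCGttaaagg
Upstream of Igf2r, chr17:12770560-12770859: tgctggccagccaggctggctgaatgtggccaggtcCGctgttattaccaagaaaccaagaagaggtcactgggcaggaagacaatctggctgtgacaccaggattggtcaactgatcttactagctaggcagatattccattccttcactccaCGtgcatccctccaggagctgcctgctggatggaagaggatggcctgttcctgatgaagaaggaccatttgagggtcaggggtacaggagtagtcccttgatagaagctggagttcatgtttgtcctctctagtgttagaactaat
Upstream of the RefSeq start of Mmp9, chr2:164938683-164938982: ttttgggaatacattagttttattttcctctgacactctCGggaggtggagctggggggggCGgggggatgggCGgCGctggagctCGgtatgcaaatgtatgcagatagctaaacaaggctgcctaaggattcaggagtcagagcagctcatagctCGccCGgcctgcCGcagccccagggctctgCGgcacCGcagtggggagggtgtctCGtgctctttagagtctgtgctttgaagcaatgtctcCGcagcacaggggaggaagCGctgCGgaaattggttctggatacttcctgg
Downstream of the Cdh4 start by 895 bp, chr2:179443318-179443558: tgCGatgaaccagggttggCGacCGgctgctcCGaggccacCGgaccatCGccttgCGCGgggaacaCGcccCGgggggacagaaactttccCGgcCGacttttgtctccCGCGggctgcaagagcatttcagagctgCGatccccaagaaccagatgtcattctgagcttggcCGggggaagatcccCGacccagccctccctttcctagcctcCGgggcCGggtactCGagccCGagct

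Some of the strongest lost peaks shared repeat sequence. The peaks on chromosomes 1 and 4 shared an unbroken run of 97 bases on the same strand, and the peaks on chromosomes 5 and 3 shared 70 bases on opposite strands. No other pair among the 8 peaks of highest fold shared a run longer than 13 bases. All 8 peaks of highest fold lay in repeat-masked sequence over 100% of their length, and none held a base of 5hmC in either culture. In the windows near genes, the CpG count ranged from 2 upstream of Igf2r to 21 in Cdh4. The Tbx2 and Ucma windows lay under a 5hmC peak of VitC+ cells over all 300 of their bases and under none of VitC- cells. In the Igf2r window 278 bases lay under 5hmC of VitC+ cells and 0 under that of VitC- cells. The Mmp9 window held H3K27me3 over 300 bases in both cultures and no 5hmC, and the Cdh4 window, the richest in CpG, held neither mark in either culture. Lost peaks at the starts of Setdb1, Ahsg, Kif12 and Cxcr2, not printed here, went the other way and held 5hmC of VitC- cells only.

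Most lost peaks were small and close to the threshold. Their median fold enrichment over background was 2.74 (quartiles 2.66 and 2.87), their median -log10 q was 1.61 and their median width was 681 bp (quartiles 365 and 1096). Kept peaks had a median fold of 2.92, a median -log10 q of 2.11 and a median width of 1711 bp, and gained peaks were narrower, at 419 bp. The share of VitC- peaks that were lost fell from 68.7% at a -log10 q of 1.3 to 1.5 (5129 peaks) to 27.9% at 2 to 3 (2576 peaks) and 4.52% at 10 or more (43 peaks). The weak peaks of the list thus made up most of the lost set, and peaks of high significance were mostly kept. The last peak inside the threshold, chr17:84344204-84344528, had a -log10 q of 1.30007, and the first outside it, chr5:35469852-35470835, had 1.29997. A further 8390 peaks below the threshold also had no VitC+ overlap and are not counted. A peak that is absent from the VitC+ list can still carry H3K9me3 below the calling limit, and with 1 list per group no replicate error can be given. Whether the histone lists pool both dishes is not given in the sources used here.

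**Figure D1:**
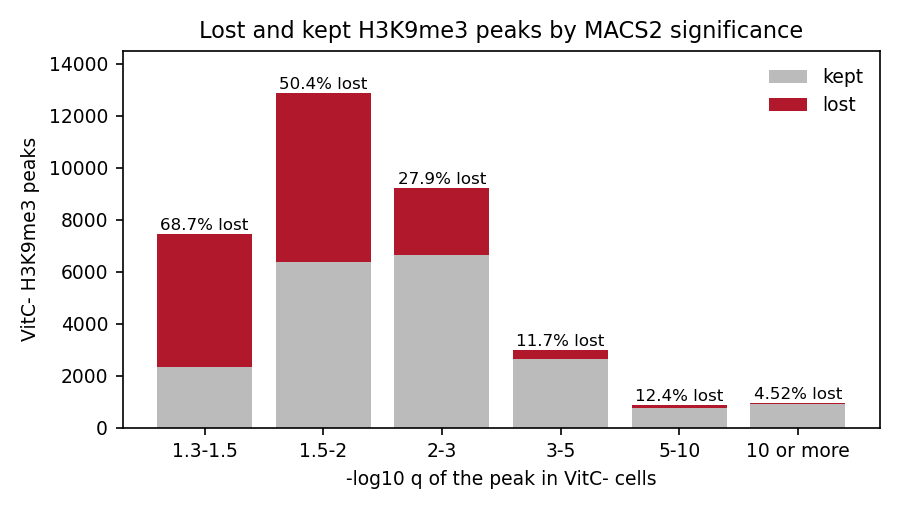
Number of H3K9me3 peaks of VitC- cells (vertical axis) by class of -log10 q (horizontal axis), with kept peaks in grey and lost peaks in red. The lost share is printed above each bar and goes from 68.7% in the weakest class to 4.52% in the strongest.

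Lost peaks lay at varied distances from H3K9me3 that persisted. The median distance to the nearest kept peak was 17946 bp, and 25.7% of lost peaks had one within 5 kb, 37.8% within 10 kb and 73.2% within 50 kb. Counting every H3K9me3 peak of VitC+ cells, gained ones included, the median distance was 10668 bp. Joined over gaps of up to 10 kb, the lost peaks formed 11831 clusters, of which 9659 were a single peak, and 34.3% of peaks were in clusters of 2 or more. Of 44 clusters of at least 5 lost peaks, 17 held no VitC+ H3K9me3 peak. The longest summed length in such a cluster was at Adcy5, an adenylyl cyclase gene on chromosome 16, with 6 lost peaks of 11077 bp in all within 40.3 kb. A cluster of 7 lost peaks lay in Hlf, the gene of a PAR bZIP transcription factor, and another of 7 at Pacsin1, a gene of endocytosis, each with 2 VitC+ peaks inside.

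The loss was spread over the chromosomes. On autosomes, between 38.6% and 47.5% of VitC- peaks above the threshold were lost (median 42.9%), whereas on X 24.3% (107 peaks) and on Y 24% (30 peaks) were lost. Per Mb, the lost peaks were densest on chromosome 17, with 9.09, and sparsest among autosomes on chromosome 14, with 2.93. On X there were 0.626 lost and 1.95 kept peaks per Mb.

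Lost peaks lay inside genes more often than kept or gained peaks. In total, 8.88% were within 3 kb of a transcription start site (TSS), 5.16% touched an exon beyond these windows, 32.3% lay in introns, 2.86% lay within 3 kb of a gene and 50.7% were distal, that is, more than 3 kb outside every gene. Among kept peaks, 24.3% were intronic and 56.3% distal, and among gained peaks 26.2% and 58.7%. Of the bases of lost peaks, 42.3% lay in gene bodies, against 37.5% for kept peaks, 35.2% for gained peaks and 44.7% of the genome, so lost peaks were closest of these sets to the genome as a whole. Exon bases made up 3.22% of lost peaks, below the 4.97% of kept peaks and the 4.30% of the genome. At starts of protein-coding genes there were 586 lost peaks.

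Lost peaks stood apart in 5hmC. In VitC+ cells, 19.6% of lost peaks (95% Wilson interval 19 to 20.3) overlapped a 5hmC peak, and in VitC- cells 16.2% (15.6 to 16.8) did. Kept peaks went the other way, with 18.8% (18.3 to 19.4) in VitC+ and 27.3% (26.7 to 27.9) in VitC- cells, and so did gained peaks, with 4.12% (3.75 to 4.52) and 9.78% (9.22 to 10.4). These intervals cover counting error only, treat neighbouring peaks as independent and do not contain the variation between dishes. Counted in bases, 5hmC covered 10.8% of lost H3K9me3 sequence in VitC+ cells, against 7.24% of the genome (ratio 1.5), and 6.27% in VitC- cells, against 5.45% of the genome (ratio 1.15). In kept peaks the VitC+ ratio was 0.736 and in gained peaks 0.302. The 5hmC list of VitC+ cells was the longer one, with 197 Mb against 149 Mb.

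**Figure D2:**
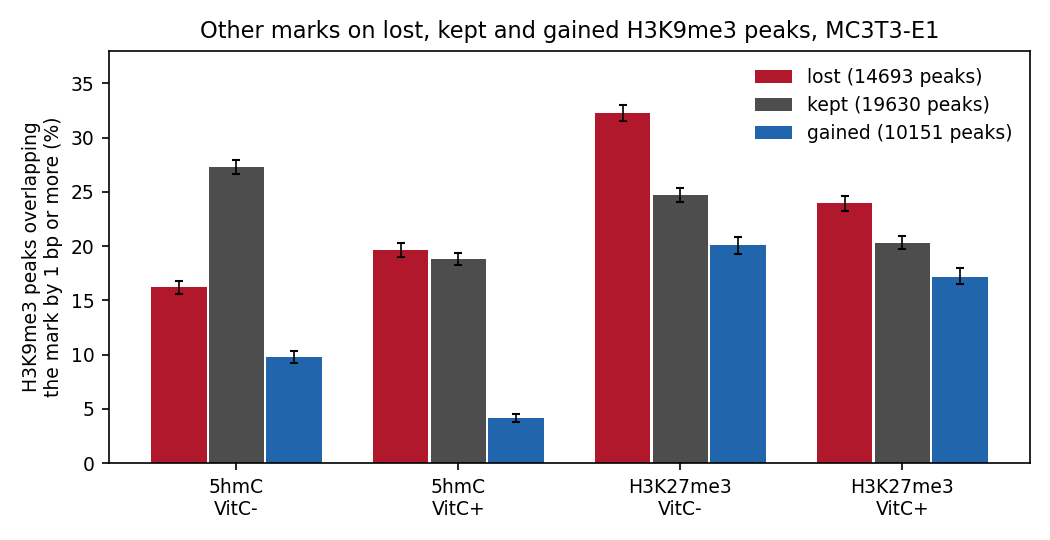
Share of lost (red), kept (grey) and gained (blue) H3K9me3 peaks that overlap a peak of 5hmC or H3K27me3 by 1 bp or more in VitC- or VitC+ cells (vertical axis, percent), with 95% Wilson intervals as error bars. Only in lost peaks is the 5hmC bar higher in VitC+ cells (19.6%) than in VitC- cells (16.2%), and H3K27me3 is highest in lost peaks of VitC- cells (32.3%).

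The same order held at every width. In lost peaks under 500 bp, 11.9% overlapped 5hmC in VitC+ and 9.83% in VitC- cells, and in those of at least 2 kb, 41.4% and 34.9% did. In kept peaks of these classes the order was the opposite, with 5.70% and 13.9% under 500 bp and 28.5% and 39.7% at 2 kb or above. Split by peak, 1837 lost peaks (12.5%) had 5hmC only in VitC+ cells, 1337 (9.09%) only in VitC- cells, 1046 in both and 10484 in neither. The ratio of the first to the second was 1.37 in lost peaks, 0.506 in kept peaks and 0.339 in gained peaks. The 5hmC peaks that touched lost peaks in VitC+ cells had a median fold enrichment of 5.97, against 5.07 for the whole list, and in VitC- cells 4.94 against 4.70.

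The 5hmC difference was wider than the peaks themselves. At about 10 kb from the middle of lost peaks, 14.5% of bases upstream lay under 5hmC in VitC+ cells and 8.39% in VitC- cells, while in the 500 bp left of the middle the values were 9.67% and 5.83%. The lost peaks were therefore local dips of 5hmC in surroundings with more of it, in either culture. Around kept peaks the VitC+ value was 10.6% at that distance, against 7.18% in VitC- cells, so the surroundings of kept peaks also had more 5hmC in VitC+ cells. At the middle of kept peaks the order was the opposite, with 4.36% in VitC+ and 5.77% in VitC- cells. Around gained peaks VitC+ stayed below VitC- cells, with 4.92% against 5.54% at that distance and 2.36% against 4.54% at the middle.

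**Figure D3:**
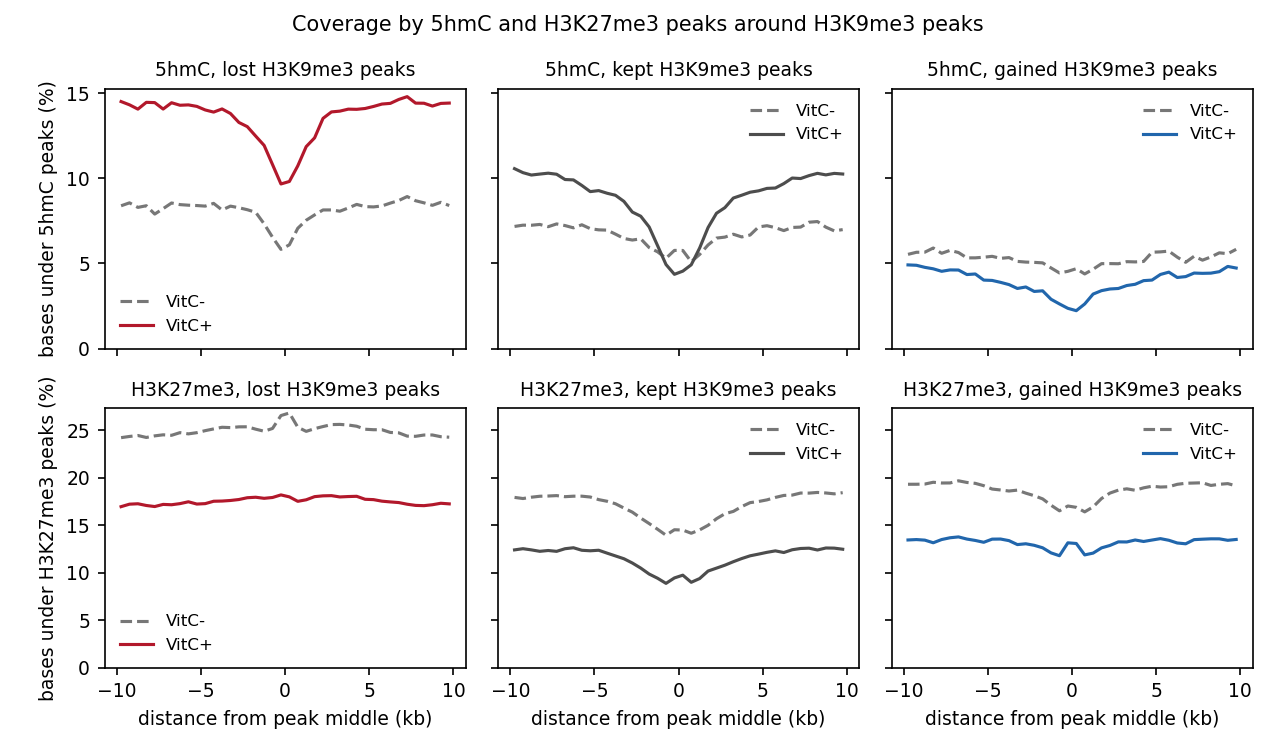
Bases under 5hmC peaks (top) and H3K27me3 peaks (bottom) in percent, in 500 bp steps up to 10 kb from the middle of lost, kept and gained H3K9me3 peaks (horizontal axis, kb), with VitC- cells dashed and VitC+ cells solid. Around lost peaks 5hmC of VitC+ cells lies above that of VitC- cells at every distance, and H3K27me3 of VitC+ cells lies below it.

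The 5hmC of lost peaks differed with their position in genes. Within gene bodies, 14.6% of lost bases lay under 5hmC in VitC+ cells, 1.3 times the share of all gene bodies (11.3%), and 6.41% in VitC- cells, 1.06 times the share there (6.03%). At distal lost peaks the shares were 7.83% in VitC+ and 6.30% in VitC- cells, which are 2.28 and 1.29 times the shares of distal sequence (3.43% and 4.87%). For kept peaks the ratios were 0.583 in VitC+ and 0.954 in VitC- cells in gene bodies, and 1.21 and 1.18 at distal sites. Counted as peaks, the excess in VitC+ cells was seen at lost peaks in introns (25.7% against 17.0%), exons (23.5% against 15.7%) and TSS windows (23.1% against 17.2%), but not at distal ones (14.7% against 15.7%). The larger 5hmC list of VitC+ cells was itself richer in gene bodies, and its part in this pattern was not tested.

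H3K27me3 was denser on lost than on kept peaks. In VitC- cells 32.3% of lost peaks (31.5 to 33.0) overlapped H3K27me3, against 24.7% of kept (24.1 to 25.3) and 20.1% of gained peaks (19.3 to 20.9), and 27% of lost bases were covered, 3.15 times the genome's 8.56%. In VitC+ cells 24.0% of lost peaks (23.3 to 24.7) did, against 20.3% of kept and 17.2% of gained peaks, and 18.1% of lost bases were covered, 3.41 times the genome's 5.31%. The list of VitC+ cells was shorter as a whole, with 145 Mb against 233 Mb. Per peak, 3304 lost peaks carried H3K27me3 in both cultures, 1436 (9.77%) only in VitC- and 217 (1.48%) only in VitC+ cells. This ratio of VitC+ only to VitC- only was 0.151 for lost, 0.427 for kept and 0.513 for gained peaks. Of the TSS window peaks among the lost, 46.8% carried H3K27me3 in VitC- and 36.9% in VitC+ cells.

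Lost peaks with H3K27me3 in VitC- cells carried 5hmC of VitC+ cells less often than those without it. Of the 4740 lost peaks with H3K27me3 in VitC- cells, 10.7% (506) carried 5hmC in VitC+ cells, against 23.9% (2377) of the 9964 without it. In VitC- cells the shares were 15.9% and 16.3%. Only 112 lost peaks had H3K27me3 only in VitC- and 5hmC only in VitC+ cells, and 6646 (45.2%) had neither mark in either culture. In sequence, lost peaks with H3K27me3 in both cultures were poor in repeats, with a median of 25.8% masked bases and 0.993 CpG per 100 bases, whereas lost peaks without it had 47.9% and 0.746.

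Repeat content separated lost from kept and gained peaks as well. The median share of repeat-masked bases was 40.5% in lost, 59.5% in kept and 71% in gained peaks, and 36.4% of the genome is masked. CpG per 100 bases was 0.812, 0.910 and 0.990, with 0.826 in the genome. The 2882 lost peaks with 5hmC in VitC+ cells were the less repetitive ones, at 28.8% masked and 1.06 CpG per 100 bases, against 45.9% and 0.748 in the others. Over lost peaks with under 25% masked bases, 5hmC covered 17.2% of bases in VitC+ and 6.94% in VitC- cells. With 50 to 90% masked bases the order turned, with 6.78% in VitC+ and 7.74% in VitC- cells, and with 90% or more the shares were 1.29% and 2.54%. The higher 5hmC of lost peaks in VitC+ cells was thus found in the classes with under 50% masked sequence. Kept peaks with under 25% masked bases also had more in VitC+ cells, with 10.9% against 6.12% of bases, and those with 25 to 50% had 6.84% against 6.67%.

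**Figure D4:**
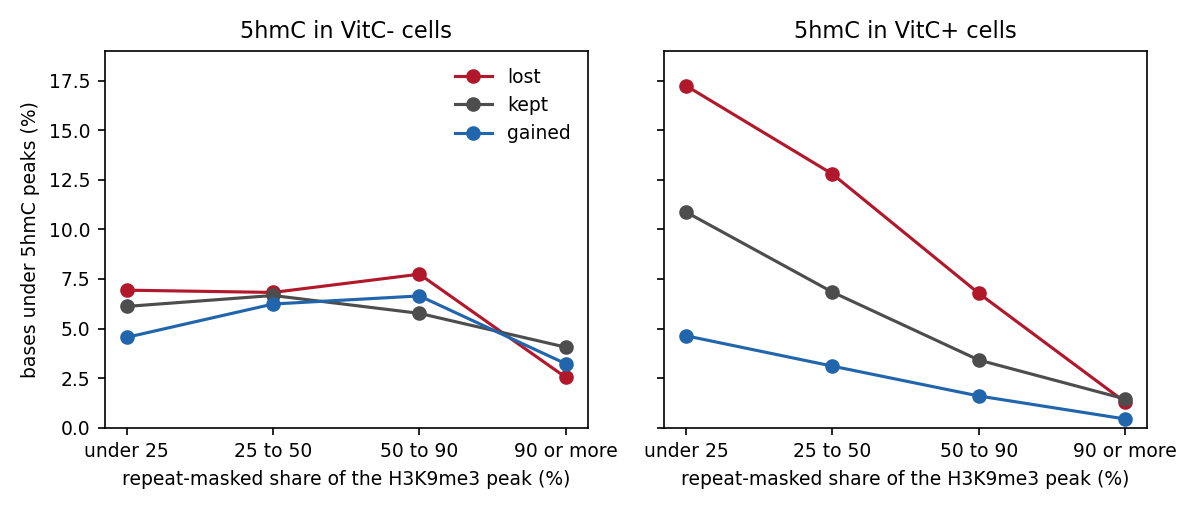
Percent of bases of lost (red), kept (grey) and gained (blue) H3K9me3 peaks under 5hmC peaks (vertical axis) by the repeat-masked share of the peak (horizontal axis), in VitC- cells (left) and VitC+ cells (right). In VitC+ cells the share falls from 17.2% to 1.29% for lost peaks and lost lies above kept below 90% masked, whereas in VitC- cells the 3 sets lie within 2.54% to 7.74%.

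The few strong lost peaks were of another kind than the many weak ones. The 152 lost peaks with a -log10 q of at least 5 had a median width of 258 bp, a median masked share of 100% and lay distal in 69.7% of cases, and 4 of them carried 5hmC in VitC+ and 13 in VitC- cells. To see how many places of the genome such a peak could stand for, the middle 51 bases of each peak, as long as a read, were searched in the whole genome on both strands. They occurred once in 84.2% of lost peaks with a -log10 q under 3, in 55.7% of those at 3 to 5 and in 35.5% of those at 5 or more, where 41.4% occurred over 100 times. Over all peaks, the middle occurred once in 83.0% of lost, 66.3% of kept and 62.8% of gained peaks. Among lost peaks whose middle occurred once, 22.2% overlapped 5hmC in VitC+ and 17.5% in VitC- cells, whereas kept peaks of this kind had 23.3% and 29.9%. In the 2499 lost peaks whose middle occurred 2 or more times the order turned, with 7.20% in VitC+ and 10.1% in VitC- cells. Kept peaks of that kind had 10.1% and 22.1%. How the authors placed reads with several matches is not given in the sources used here, and its part in the strong peaks was not tested.

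The highest fold among lost peaks, 5.44, belonged to a distal peak on chromosome 18 nearest to Cbln2, whose middle occurred once. It was followed by chr7:15658189-15658510, nearest to Obox3, at 5.30, whose middle occurred 4953 times, and by chr6:46880962-46881173 in an intron of Cntnap2, at 5.13, with 3 occurrences. The peak chr8:70909871-70910175 in an intron of Map1s (fold 4.92, 269 occurrences) held 177 bp of H3K27me3 in VitC+ and 215 bp in VitC- cells. The 4 sequences printed first had folds of 4.87 (chromosome 1), 4.65 (chromosome 4), 4.89 (chromosome 5) and 4.74 (chromosome 3). The widest lost peaks were less extreme in fold. The widest, chr15:97077787-97084772 in an intron of Gm32840, was 6986 bp long with a fold of 2.74 and held 493 bp of 5hmC in VitC+ cells and 0 in VitC- cells. A peak of 6062 bp in an intron of Xxylt1, a xylosyltransferase gene (chr16:31037548-31043609), held 2909 bp of 5hmC in VitC+ and 1129 bp in VitC- cells. A peak of 5905 bp at the start of Gcgr, the glucagon receptor gene (chr11:120523631-120529535), lay under H3K27me3 over its whole length in VitC- cells and over 3584 bp in VitC+ cells.

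Next, genes near lost peaks were counted, taking the start of the RefSeq gene model. Of 21774 protein-coding genes, 566 (2.6%) had a lost peak within 3 kb of the start and 5747 (26.4%) within 30 kb. Kept peaks lay within 3 kb of 4.25% and gained peaks of 1.98% of genes. Zinc finger and clustered protocadherin genes carried more kept than lost peaks. Of 424 zinc finger genes, 9 (2.12%) had a lost and 61 (14.4%) a kept peak at the start, and of 57 genes of the protocadherin clusters 0 had a lost and 29 a kept peak. Among 1109 olfactory receptor genes 10 had a lost (0.902%), 13 a kept and 10 a gained peak, and among 350 vomeronasal receptor genes 1, 3 and 4 did. Of 39 Hox genes, which pattern the body axis, 5 had a lost peak (Hoxa11, Hoxb4, Hoxc4, Hoxc5 and Hoxc11) and 16 a kept one. Of 26 imprinted genes, 2 did, Igf2r and Plagl1.

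Bone genes were looked at by the Bone60 set, which the study defined as bone-selective from RNA-seq of public human and mouse tissues. Of 59 genes, 4 had a lost peak within 3 kb of the start (Mmp9, Tbx2, Slc13a5 and Crygn), and 28 (47.5%) had one within 30 kb. Within 30 kb, kept peaks lay near 50.8% of Bone60 genes and 30.6% of all genes, and gained peaks near 18.6% and 17.3%. The gene with the most lost sequence was Entpd3, an ectonucleotidase gene, with 3 peaks and 4772 bp and no kept or gained peak. Around it, 13037 bp lay under 5hmC in VitC+ and 8120 bp in VitC- cells. Tbx2, a T-box transcription factor gene, followed with 3 peaks and 3516 bp inside the window, and its promoter peak is the one printed above, with 364 of 364 bp under 5hmC in VitC+ cells.

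Phospho1 and Dmp1 are named by the study for H3K9me3. Phospho1, whose phosphatase starts mineral formation in matrix vesicles, had 2 lost peaks within 30 kb of its start, at chr11:95814488-95816811 (2324 bp) and chr11:95848990-95849297 (308 bp), and 1 kept peak with 4743 bp. The first held 795 bp of 5hmC in VitC+ and 387 bp in VitC- cells, and around the gene 941 bp with VitC and 9846 bp without it lay under H3K27me3. Dmp1, which encodes a matrix protein of osteocytes, had 2 lost peaks of 1512 bp in all, 22625 and 27110 bp downstream of its start, and 2 kept peaks of 10366 bp in all. Around Dmp1, most sequence under H3K9me3 peaks of VitC- cells thus belonged to kept peaks. A kept peak needs to share only 1 bp with a VitC+ peak, so these lengths do not give the sequence that stayed marked. The osteoblast transcription factor genes Runx2 and Sp7 each had 1 lost peak, of 1485 and 1233 bp, and no kept one. Around Runx2, 5hmC covered 27990 bp in VitC+ against 8468 bp in VitC- cells, and around Sp7 16282 and 7791 bp. Ibsp and Mepe, neighbouring genes of matrix proteins, shared 1 lost peak of 640 bp. In 27 of the 28 Bone60 genes with a lost peak within 30 kb more sequence lay under 5hmC in VitC+ than in VitC- cells (96.4%), against 49 of all 59 (83.1%), 66.6% of all genes with a lost peak and 57.3% of all genes. The exception was Dnase1l3, with 2151 bp in VitC+ against 3624 bp in VitC- cells. H3K27me3 covered less in VitC+ cells around 18 of the 28, or 64.3%, against 72.6% of all genes with a lost peak.

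Some genes of enzymes that act on H3K9 had lost peaks at their starts. Of 12 genes of H3K9 demethylases, 2 had a lost peak at the start, Jmjd1c and Kdm3a. Neither is among the H3K9me3 demethylase genes that the study examined, which were Kdm4a, Kdm4b and Kdm4c. At Jmjd1c the lost peak chr10:67091609-67094692 (3084 bp) held 1003 bp of 5hmC in VitC+ and 0 in VitC- cells, and at Kdm3a, which encodes an H3K9 demethylase, the lost peak chr6:71634782-71635779 held none, with 816 bp of H3K27me3 in VitC+ and 434 bp in VitC- cells. Of 21 genes of H3K9 methyltransferases and readers, Setdb1 had one, of 2969 bp, with 0 bp of 5hmC in VitC+ and 342 bp in VitC- cells. Of 10 TET and H3K27 enzyme genes, 0 had a lost peak at the start and 4 within 30 kb. Of 22 genes of collagen processing, 0 had a lost peak at the start and 9 within 30 kb. Of 18 chondrocyte genes, Ihh, the hedgehog ligand of the growth plate, and Ucma, a cartilage matrix protein, had a lost peak at the start. Adipocyte, skeletal muscle, neuron and endothelial genes had 0 at the start, of 22, 20, 24 and 10. The same held for 12 interferon response genes and 48 genes of the Pramel family. At the start, 2.6% of all protein-coding genes had a lost peak. Within 30 kb, 7 of the 12 interferon response genes (58.3%) had one, against 26.4% of all protein-coding genes. Of the other lists, 3 adipocyte, 4 skeletal muscle, 3 neuron, 3 endothelial and 5 Pramel genes had one within 30 kb. Lost peaks were at the start of 2 of 13 hepatocyte genes (Ahsg and Hnf4a), 2 of 13 B cell genes (Cd79b and Pax5), 1 of 13 neutrophil genes (Cxcr2), 1 of 10 erythroid genes (Slc4a1), 2 of 12 osteoclast genes (Mmp9 and Ocstamp), 6 of 109 keratin genes and 2 of 23 cadherin genes (Cdh4 and Cdh17).

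By summed length within 30 kb, the genes with the most lost sequence were Lgi2, Hlf, Rhou, Kif12, Tspan11, Rnf112, Eppin, Wfdc6a, Mrpl34 and Abhd8. Lgi2, a gene of a secreted leucine-rich protein, had 6 lost peaks with 12606 bp, and 28832 bp around its start lay under 5hmC in VitC+ against 11254 bp in VitC- cells, while H3K27me3 covered 0 and 10740 bp. Around Tspan11, a tetraspanin gene, 5 lost peaks covered 9467 bp and 5hmC 32803 and 10633 bp. Hlf (9 peaks, 10510 bp) and Kif12 (6 peaks, 9694 bp), a kinesin gene, lay in H3K27me3, with 45241 and 55347 bp in VitC+ and 56593 and 59751 bp in VitC- cells. Eppin and Wfdc6a are neighbours and share the same 5 peaks, as Mrpl34 and Abhd8 share 3. Lost peaks thus collected both around genes with 5hmC gain and around genes under broad H3K27me3.

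In femoral bone, 5hmC covered nearly the same share of lost peaks with and without VitC. On autosomes, to which the lists of these femurs were limited, 6.65% of lost bases lay under 5hmC in VitC+ and 6.90% in VitC+/- femurs, which are 0.934 and 0.972 times the genome's shares, against 4.60% and 6.00% of kept bases. In Ctrl femurs 13.3% of lost bases lay under 5hmC (1.32 times the genome) and in Tet1/2 cKO femurs 5.54% (1.23 times), with 6.48% and 2.52% for kept bases. Over the genome the shares were 10.0% in Ctrl and 4.51% in cKO femurs. In each femur list a larger share of bases lay under 5hmC in lost than in kept peaks, although kept peaks, which are wider, overlapped a 5hmC peak more often in VitC+ femurs (24.0% against 17.3%). With 1 list per group these differences between femurs have no replicate check.

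Gulo, the gene disrupted in the knockouts, was checked in the femur RNA before any comparison. Its RPKM in WT replicates 1 to 3 was 0.522, 0.486 and 0. With VitC, knockout replicates 1 to 3 had 0.180, 0.0352 and 0.0294, and VitC+/- replicates had 0.0126, 0.0141 and 0.0186. One library with a WT label (replicate 3) therefore lacked Gulo signal, and replicate 1 of VitC+ stood above the other knockouts. All these values lie below the RPKM of 1 that the filter on low values asks for, so they cannot settle the label of a library. Sums of scaled RPKM over markers of other cells differed between VitC+ and VitC+/- femurs for several of the lists. For 13 B cell genes they were 94.7, 162 and 179 in VitC+ against 16.9, 30.8 and 27.6 in VitC+/- femurs, for 13 neutrophil genes 29935, 47234 and 33333 against 17391, 24122 and 7184, and for 12 osteoclast genes 1948, 2239 and 2678 against 5298, 2977 and 6542. For the erythroid genes they were 290, 209 and 270 against 444, 437 and 332, and for 7 osteoblast genes 6257, 2686 and 4729 against 662, 182 and 1616. The chondrocyte sum ranged from 251 to 791 in VitC+ and from 50.5 to 75.1 in VitC+/- femurs, and the adipocyte sum stood out in VitC+/- replicate 2, with 3597 against 546 and 492 in the other VitC+/- femurs. Endothelial sums overlapped, with 194, 144 and 172 in VitC+ against 159, 136 and 156 in VitC+/- femurs. Skeletal muscle sums varied within each group, with 36.9, 1593 and 51.8 in VitC+ and 630, 22.8 and 9.87 in VitC+/- femurs. In WT femurs the muscle sums were 382, 10.5 and 915. In WT femurs the osteoblast sum ranged from 511 to 2168, so it overlapped VitC+/- and not VitC+ femurs. The MC3T3-E1 label was not checked against marker genes, since no RNA of these cells was analysed here. In bulk bone, fewer cells of a type and less RNA per cell cannot be told apart.

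Of the 566 genes with a lost peak at the start, 524 were in the RNA files and 247 passed the filter on low values. Among these, 31 (12.6%) were lower and 18 (7.29%) were higher in VitC+/- than in VitC+ femurs (limma, Benjamini-Hochberg adjusted threshold of 0.05). Over all 12578 genes tested, 7.96% were lower and 5.5% higher. Genes with a kept peak at the start had 10.1% lower and 6.44% higher, and those with a gained peak 15.7% and 5.22%, so for falls the lost set lay between them. The median log2 difference, VitC+/- minus VitC+ on log2(scaled RPKM + 0.5), was -0.07 for the 247 genes and 0.01 for all genes. Without scaling, which moved the median of all genes to 0.13, 19 of the 247 were lower and 19 higher and their median turned to 0.05. The counts depended on the libraries, with 20 lower and 14 higher without WT replicate 3, and 7 and 4 without WT replicate 3 and VitC+ replicate 1. Without VitC+ replicate 1 alone they were 15 and 10, without VitC+ replicate 2 they were 11 and 8, without VitC+ replicate 3 they were 11 and 9, and without VitC+/- replicate 1 they were 9 and 5.

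The 5 largest falls were those of Prss34, Mgl2, Pax5, Plbd1 and Shc2. Prss34, a mast cell and basophil protease gene, had RPKM values of 17.1, 38.7 and 28.4 in VitC+ and 2.54, 3.87 and 3.6 in VitC+/- femurs, a log2 difference of -2.97 (SE 0.21, limma adjusted p 0.000363). Mgl2, a lectin gene of macrophages and dendritic cells, had 6.64, 10.2 and 8.80 against 0.590, 1.38 and 0.637 (log2 difference -2.86, SE 0.27, limma adjusted p 0.000716). In both genes all VitC+/- libraries lay below all VitC+ and WT libraries. Pax5, the B cell identity factor, had 4.66, 11.5 and 9.03 against 0.450, 1.06 and 1.44 (-2.67, SE 0.73, limma adjusted p 0.0412), and among WT libraries it ranged from 1.61 to 20.1. Plbd1, a phospholipase gene of myeloid cells, fell by 2.48 on the log2 scale (SE 0.20, limma adjusted p 0.000394) and Shc2, an adaptor gene, by 2.10 (SE 0.45, limma adjusted p 0.0190). The B cell receptor gene Cd79b, with 16.5, 34.6 and 46.1 in VitC+ and 5.20, 11.1 and 8.63 in VitC+/- femurs, fell by 1.98 (SE 0.37, limma adjusted p 0.0118). The neutrophil receptor gene Cxcr2, with 16.1, 30 and 18.8 against 4.80, 12.7 and 6.15, fell by 1.60 (SE 0.33, limma adjusted p 0.0161). Pax5, Cd79b and Cxcr2 are themselves among the B cell and neutrophil genes summed above, and the part of those sums in the falls was not tested.

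In MC3T3-E1 cells without VitC, the lost peaks at the starts of Pax5, Cxcr2 and Cd79b lay under H3K27me3. Of all lost peaks in TSS windows, 46.8% carried this mark in VitC- and 36.9% in VitC+ cells. The marks on the start peaks of Prss34, Mgl2, Plbd1 and Shc2 are not described here, and a link between H3K27me3 and the falls was not tested. The 243 bp peak in Pax5 (chr4:44710127-44710369) and the 536 bp peak upstream of Cxcr2 (chr1:74151619-74152154) were covered over their whole length in both cultures. Of the 2 lost peaks at the start of Cd79b, the 391 bp peak was covered in both cultures and the 447 bp peak in VitC- cells only. Hoxb4 also fell, with 3.12, 5.23 and 3.24 in VitC+ and 1.43, 2.08 and 1.37 in VitC+/- femurs (-1.14, SE 0.32, limma adjusted p 0.0476).

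The 5 largest rises were those of Fam132b, Eya2, Fstl3, Slc4a1 and Deptor. Fam132b (Erfe), the erythroferrone gene of erythroid precursors, had 0.652, 0.491 and 0.592 in VitC+ and 7.26, 6.48 and 1.09 in VitC+/- femurs (log2 difference 1.93, SE 0.52, limma adjusted p 0.0411). Slc4a1, the band 3 gene of red cells, had 32.1, 41.2 and 57.6 against 146, 164 and 98.0 (1.5, SE 0.31, limma adjusted p 0.0168). The erythroid sum was also higher in VitC+/- femurs. Slc4a1 is itself among the erythroid genes summed above, and the part of that sum in the rises was not tested. Eya2, a developmental phosphatase gene, had 1.81, 1.26 and 1.72 against 5.73, 6.62 and 9.60 (1.75, SE 0.25, limma adjusted p 0.00426), but its lost peak lay at a RefSeq start 60270 bp from the start in the RNA files. Fstl3, a follistatin-like inhibitor of activins, rose from 0.254, 0.122 and 0.398 to 1.48, 1.16 and 4.78 (1.71, SE 0.41, limma adjusted p 0.0272), while its WT values were 0.453 to 0.807. Deptor, an inhibitor of mTOR, rose by 1.44 (SE 0.35, limma adjusted p 0.0295).

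Mmp9, the gelatinase gene of osteoclasts, had 182, 327 and 439 in VitC+ and 862, 626 and 1087 in VitC+/- femurs (1.35, SE 0.25, limma adjusted p 0.0113), with 144 to 191 in WT femurs. All VitC+/- libraries were above all others, as the osteoclast sum was. Mmp9 is itself among the osteoclast genes summed above, and the part of that sum in its rise was not tested. The start of Mmp9 in the RNA files lies 7925 bp from the RefSeq start at which the lost peak was counted. Kdm3a had 6.68, 7.15 and 8.35 in VitC+ and 16.6, 14.6 and 17.7 in VitC+/- femurs, with 6.00 to 7.87 in WT femurs (0.95, SE 0.15, limma adjusted p 0.00567). The VitC+/- libraries did not overlap the others. Jmjd1c (0.35, SE 0.18, limma adjusted p 0.211) and Setdb1 (0.29, SE 0.13, limma adjusted p 0.149) did not pass the test. With the start sites of the RNA files, the lost peaks of Mmp9, Eya2, Jmjd1c, Deptor and Slc13a5 lay more than 3 kb away, and 34 genes were lower and 17 higher of 228 tested.

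**Figure D5:**
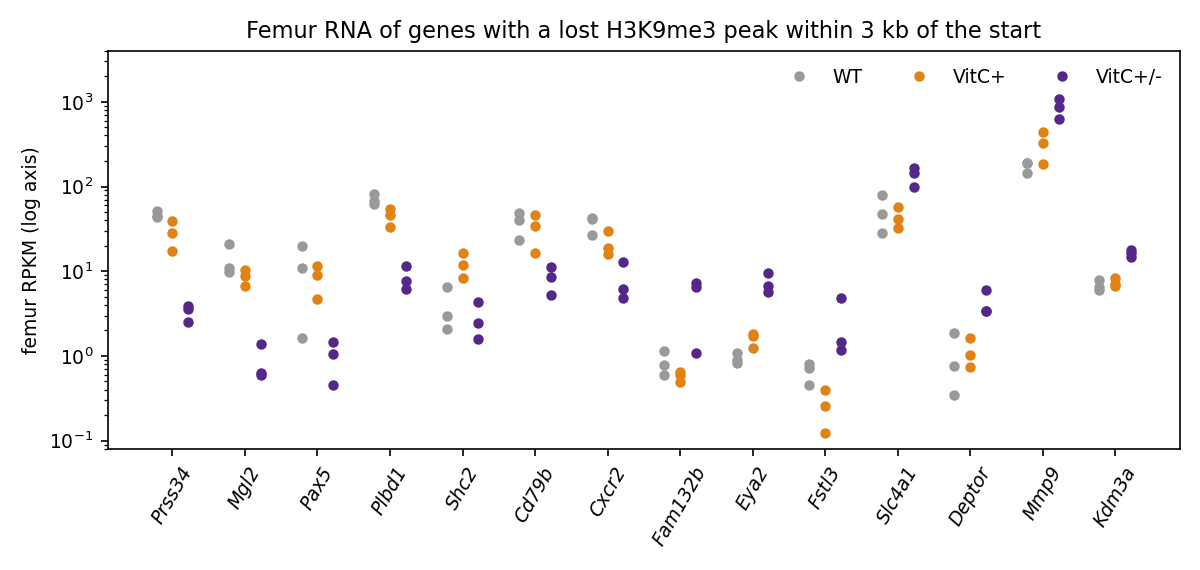
Femur RPKM (vertical log axis) of genes with a lost H3K9me3 peak within 3 kb of the RefSeq start, one point per library, for WT (grey), VitC+ (orange) and VitC+/- (purple) mice. In Prss34, Mgl2, Plbd1 and the other genes of the left group the VitC+/- points lie below the VitC+ points, and from Fam132b to Kdm3a they lie above them.

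Of the 28 Bone60 genes with a lost peak within 30 kb, all were tested, with 6 lower (among them Dlx3, Dmp1, Entpd3, Phospho1 and Rhbdl2) and 1 higher (Mmp9). Of the 30 tested Bone60 genes without one, 17 were lower and 1 higher. Entpd3 had 28.0, 23.4 and 45.8 in VitC+ and 1.68, 1.49 and 2.29 in VitC+/- femurs (-3.91, SE 0.37, limma adjusted p 0.000716). Phospho1 had 7.34, 10.7 and 16.2 against 2.77, 2.28 and 3.95 (-1.85, SE 0.35, limma adjusted p 0.0121), and Dmp1 47.2, 89.2 and 99.0 against 30.5, 30.5 and 40.3 (-1.29, SE 0.28, limma adjusted p 0.0189). In WT femurs Phospho1 ranged from 3.12 to 8.11 and Dmp1 from 20.0 to 39.8, so that WT overlapped VitC+/- femurs in both genes. Runx2 (-0.69, SE 0.20, limma adjusted p 0.0531), Sp7 (-1.30, SE 0.54, limma adjusted p 0.137), Tbx2 (-0.74, SE 0.43, limma adjusted p 0.275) and Slc13a5 (-2.77, SE 0.86, limma adjusted p 0.0623) did not pass. The share lower was thus smaller among Bone60 genes near lost peaks than among the others, a difference that was not tested. The osteoblast sum was also lower in VitC+/- femurs. Phospho1, Dmp1, Runx2 and Sp7 are themselves among the osteoblast genes summed above, so the sum is not independent of them. Its part was not tested.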

How the data were processed

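Peak lists and femur RNA-seq values were used as deposited. The authors mapped reads to mm10 with BWA 0.7.15.1 and called peaks with MACS2 at an FDR of 0.05. The submitters' processing notes give MACS2 2.1.1.20160309.6, and the methods of the study name another release. As the histone lists reach down to a -log10 q of 1.01, peaks were kept from 1.3 upward. The deposited fold enrichment is the authors' ratio of pileup to local background in MACS2, and the -log10 q values are deposited by the authors from MACS2. RPKM values were deposited per femur library by the authors, who aligned with STAR 2.6.0b-1, while the methods name cufflinks for FPKM and do not say what made the deposited RPKM. Normalized counts of the Tet femur RNA-seq were not used here.

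A peak overlapped another when at least 1 bp was shared. Gene starts, repeat masking and sequence came from RefSeq on GRCm38.p6 (mm10). Femur RPKM was scaled by median of ratios, entries that reached an RPKM of 1 in 3 or more libraries entered limma 3.58.1 as log2(value + 0.5) over all 9 libraries, with Benjamini-Hochberg adjustment. Depth of the peak lists and RNA libraries is not given by these values. Of the 23315 gene names, 97.4% matched RefSeq, and 69 of 23358 entries share a name. The study describes the femur replicates as independent animals. RPKM of overlapping or antisense genes can share reads.

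Genes and regions were named by rule, namely the 8 lost peaks of highest fold, the 5 widest and those next to the threshold, the 10 genes with most lost sequence within 30 kb, genes of fixed lists with a lost peak at the start, the 5 largest falls and rises past the test, and Phospho1 and Dmp1. Adcy5, Pacsin1, Runx2, Sp7, Ibsp, Mepe, Entpd3 and Dnase1l3 were named after their values were seen. A withheld item is not reported here. The members and the gene lists were chosen with earlier results of these data known. No column was left unmapped (0). Computations used Python 3.11.15 (pysam 0.24.0, matplotlib 3.10.9, scipy 1.17.1, pandas 2.3.3, numpy 2.4.6) and R 4.3.3.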

Additional observations from a re-analysis of the deposited data

How the results depend on the processing

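Of 60 alternatives, 25 left the reported count or share within its limits. With -log10 q of at least 3, 502 lost peaks remained, with 63.9% distal, a median of 100% masked, 5hmC on 14.2% in VitC+ and 12.6% in VitC- cells and H3K27me3 on 9% and 18.4%. With no VitC+ peak within 5 kb, 9407 remained, with 47.1% distal, 39.5% masked, 5hmC on 22.8% and 17.3% and H3K27me3 on 20.8% and 28.7%. Distal beyond 10 kb of every gene held 37.5%, and an overlap of at least 50% of the peak gave 5hmC on 8.45% and 4.47% and H3K27me3 on 18.2% and 27.2%. Counted as peaks, 5hmC was more frequent in VitC+ than in VitC- cells with the stricter q, the 5 kb distance and the larger overlap. This excess was not seen at a -log10 q of 5 or more (4 against 13 of 152 peaks). Nor was it seen with 50 to 90% masked bases (15.6% against 20.2%) or with 90% or more (3.45% against 7.06%). Among distal lost peaks it was absent by peaks (14.7% against 15.7%) but present by bases (7.83% against 6.30%). Counting only VitC+ peaks with a -log10 q of at least 1.3 gave 14938 lost peaks.

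In femurs, genes with a lost peak within 1 kb of the start gave 11 lower and 4 higher of 58 tested, and peak midpoints within 30 kb gave 300 and 180 of 3280. Without scaling there were 19 and 19, as the median of all genes moved to 0.13 and that of the 247 genes turned from -0.07 to 0.05, and over all genes 403 lower and 472 higher in place of 1001 and 692. Leaving out 1 library of either group gave 9 to 26 lower and 5 to 17 higher, and over all genes as few as 327 lower (without VitC+/- replicate 1) and 150 higher (without VitC+ replicate 2). Without WT replicate 3 (chosen after seeing the data) there were 20 lower, and without this and VitC+ replicate 1 there were 7 and 4, with 174 and 85 over all genes. Start sites of the RNA files in place of RefSeq, also chosen after seeing the data, gave 34 and 17 of 228. Replicate numbers did not pair the libraries (1 of 3 same-numbered pairs correlated above 0.1, and 3 of 6 libraries correlated best with their own number), and a fit with the number as a replicate block gave 36 lower and 23 higher, with 1264 and 907 over all genes. Beyond the smaller number of peaks, genes or libraries that an alternative keeps, the cause of these shifts was not tested. No depth behind a peak is given, so a peak missed in the VitC+ list at low depth cannot be told apart from one that is gone.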
